A study of Homo sapiens with 38 samples.

Results

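In Shef6 human embryonic stem cells leaving the naive state in N2B27 medium, 26 genes stood at least 2-fold higher at days 3 and 4 than in naive cells before and than at day 8 afterwards. They were selected by these measured values from the 57133 genes of the table. Levels are given as CPM, a gene's count over the library's total count times 1000000. With M the mean of the 4 N2B27 libraries of days 3 and 4 in the first experiment, N the mean of the 4 naive libraries of that experiment and L the mean of the 2 N2B27 libraries of day 8, a gene was kept where M was at least 10 CPM and both (M + 1)/(N + 1) and (M + 1)/(L + 1) were at least 2. Of 9100 genes with M of at least 10 CPM, 704 passed the first ratio, 161 the second and 33 both. Symbols starting with SLC, ZNF, COL, LAM, ITG or LINC, or ending in P and digits, were left out, which removed 7 of the 33. The 26 genes fall into 5 transcription factor genes (IRX4, GBX2, ZIC1, SPIB, ETV1), 4 genes of chromatin and RNA silencing (DNMT3B, HIST1H2AC, HIST2H4A, MOV10), 3 genes of secreted proteins (BDNF, CXCL12, CCDC80), 5 of membrane receptors and adhesion (ADGRG6, GPRC5A, PCDH19, PARM1, LHFPL4), 4 of synaptic and intracellular signalling proteins (UNC13A, IQSEC2, PHACTR1, PPP1R1B), 2 enzymes and an oxygen carrier (CBR3, METTL7A, HBA2) and 2 RNAs known by clone names (AL137013.1, AC010168.2).

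The study followed capacitation of the established cell line Shef6, in all groups naive cells adapted to culture on serum coating without feeder cells, by QuantSeq, a 3′ RNA sequencing method that reads near the polyadenylated end of transcripts, in 38 libraries forming 19 groups of 2. The first experiment held naive cells in PXGL (LIF plus MEK, tankyrase and PKC inhibition), on dishes coated with serum or with the matrix Geltrex, and cells moved on Geltrex to basal N2B27 (days 2, 3, 4, 6 and 8), to E8 (the same days) or to mTeSR (days 4, 6 and 8), where E8 and mTeSR are commercial media that supply FGF and TGF-beta family signals. In the second experiment naive cells on Geltrex were compared at day 4 with N2B27, with N2B27 plus the tankyrase inhibitor XAV939 (XAV) and with N2B27 plus FGF2, Activin A and XAV939 (FAX). The naive libraries of that experiment are day 0 by title and time point but carry day 4 in their library names, which was not settled, and they are used here as day 0. Replicates are parallel libraries of 1 line, described in the study's legends as technical in places and as biological in another, so that p-values measure only the spread between these libraries.

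Naive pluripotent cells resemble the epiblast of the early blastocyst, whereas primed cells resemble the epiblast after implantation, and capacitation is the passage between them in which cells become competent to form germ layers. Releasing cells from MEK inhibition restores signalling through ERK, naive factors decline, and the DNA methyltransferases that set new methyl marks rise. A formative state is thought to lie on this path, so that genes may rise on leaving the naive state and decline again as later features appear.

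Total counts ranged from 3038046 to 5612354 per library (median 4427277), and 3 counts per library, taken as the floor, correspond to 0.906 CPM in the naive group of the second experiment. The summed level of 5 pluripotency markers was 2020 to 3600 CPM over all libraries, with all 5 above the floor in every group. Summed levels of 9 naive markers went from 1870 to 2080 CPM in naive cells of the first experiment to 727 to 804 CPM in N2B27 at day 8. The summed level of 4 neural markers was 1.99 to 3.29 CPM in naive cells of the first experiment. In N2B27 it was 7.21 to 12.5 CPM at days 3 and 4 and 5.47 to 6.14 CPM at day 8. Only 2 of the 4 were above the floor at days 3 and 4, with SOX1 at 0 at day 3. There were 1 or 2 in the naive groups and 3 at day 8, so that this course rests on few genes. Other marker lists moved over the same days. The summed level of 9 mesendoderm markers was 13.9 to 22.2 CPM in naive cells of the first experiment, 69.1 and 71.2 CPM in N2B27 at day 4 and 389 and 472 CPM at day 8, where E8 had 52.6 and 54.4 CPM and mTeSR 231 and 279 CPM. That of 12 amnion or trophectoderm markers went from 24.4 to 35.1 CPM in naive cells to 114 and 140.0 CPM in N2B27 at day 8, where E8 had 52.0 and 54.0 CPM and mTeSR 41.6 and 49.2 CPM. That of 6 fibroblast markers went from 1.97 to 2.65 CPM in naive cells to 98.2 and 103 CPM in N2B27 at day 4. At day 8 it was 176 and 190.0 CPM. Only 2 of the 6 were above the floor in N2B27 at days 2 and 3. There were 3 at days 4 and 6, and 5 at day 8. LUM was at 0 at days 2 to 6 and COL3A1 at days 2 to 4. PDGFRB was at 0 at days 2 and 3, and DCN at day 8. E8 and mTeSR at day 8 had 107 to 152 CPM, with 3 of the 6 above the floor in each. The part of other cells in the results was not tested, and in bulk RNA fewer cells of a type and less RNA per cell cannot be told apart.

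By construction all 26 genes rose and fell in N2B27, and the following values describe that choice without a test. The smaller of the 2 ratios ran from 2.01 for ETV1 to 3.54 for UNC13A. Just inside the limit lay ETV1 at 2.007, PCDH19 at 2.1434 and CCDC80 at 2.205. Just outside lay PDZD4 at 1.9994, C2CD5 at 1.9962 and RGS4 at 1.9684. The highest N2B27 mean lay at day 2 in 7 genes, at day 3 in 13 and at day 4 in 6. Day 2 was already at least 2-fold above naive cells in 24 of the 26, as (CPM + 1) ratios, with a median of 4.38. Day 6 lay below both day 3 and day 4 in 25 genes, the exception being GPRC5A, and above day 8 in 25, the exception being PCDH19. At day 8 the (CPM + 1) ratio to the naive mean was at least 2 in 13 genes and above 1 in 22, all but CBR3, PHACTR1, METTL7A and ZIC1. HIST1H2AC lay within the range of its naive libraries.

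**Figure D1:**
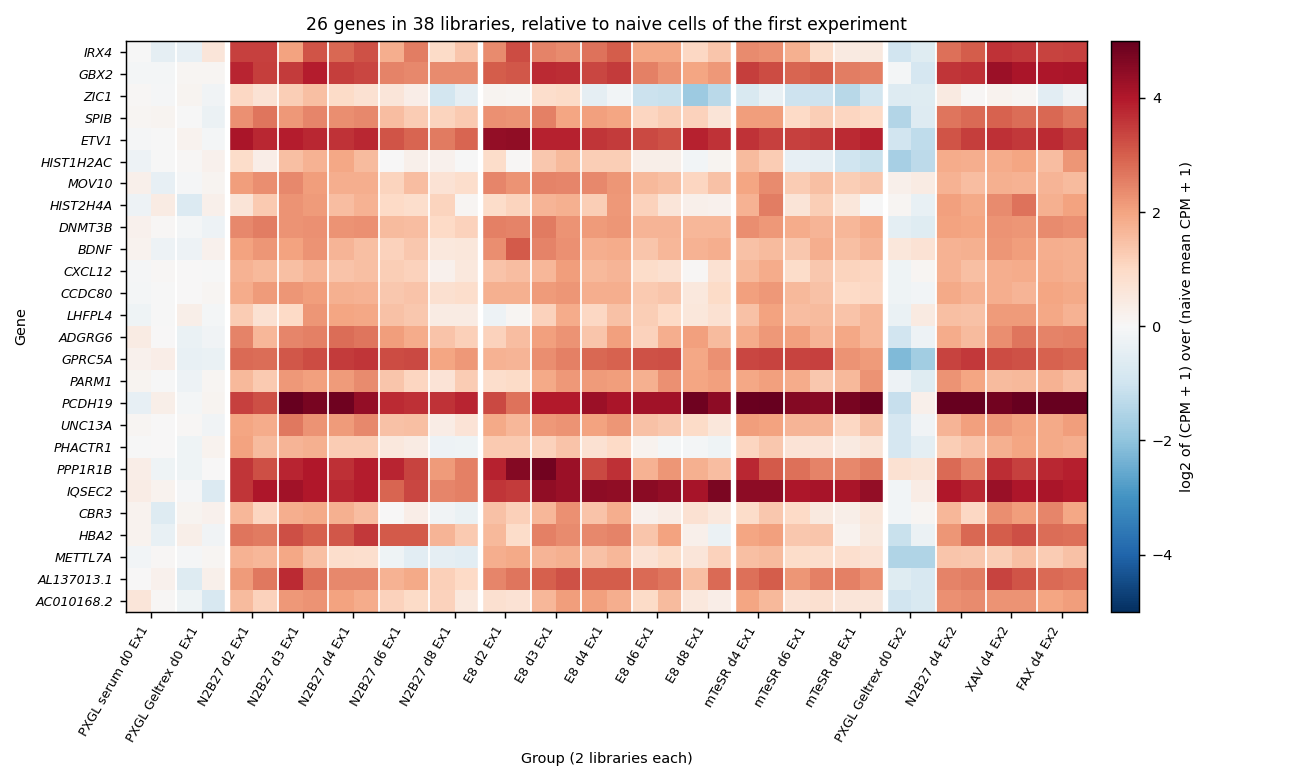
Each row is a gene and each column a library, ordered by medium and day, with the colour giving the log2 of (CPM + 1) over (mean naive CPM + 1) of the first experiment. In N2B27 the colour deepens to days 3 and 4 and pales by day 8, whereas rows such as IQSEC2, ETV1 and PCDH19 stay dark at day 8 in E8 and mTeSR.

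Sequence around a transcript start was looked at because the genes were selected for moving together. RefSeq windows on GRCh38.p14 from 250 bases before to 50 after a transcript start were matched to 20 of the 26 genes, and not to CBR3, HBA2, PPP1R1B, GPRC5A, AL137013.1 and AC010168.2. Shown here are the windows of the homeobox genes IRX4 and GBX2, which fell in E8, of ZIC1, which holds a searched motif more than once, and of IQSEC2, which held its level in E8. They run 5′ to 3′ on the gene's strand, and capitals mark the letters GGAATG, a TEAD motif, on either strand. The IRX4 window is chr5:1886896-1887195 on the minus strand, that of GBX2 chr2:236168337-236168636 on the minus strand, that of ZIC1 chr3:147409115-147409414 on the plus strand and that of IQSEC2 chrX:53321301-53321600 on the minus strand. RefSeq and GENCODE starts differ for some genes. The start used lay 15943 bases inside the GENCODE span of ZIC1, 17467 inside that of DNMT3B and 8387 inside that of CCDC80. It lay 1298 to 1543 inside those of MOV10, CXCL12 and METTL7A. For IRX4, PHACTR1 and ETV1 it lay 291, 455 and 723 bases inside. The windows of these genes lie around an internal start.
IRX4: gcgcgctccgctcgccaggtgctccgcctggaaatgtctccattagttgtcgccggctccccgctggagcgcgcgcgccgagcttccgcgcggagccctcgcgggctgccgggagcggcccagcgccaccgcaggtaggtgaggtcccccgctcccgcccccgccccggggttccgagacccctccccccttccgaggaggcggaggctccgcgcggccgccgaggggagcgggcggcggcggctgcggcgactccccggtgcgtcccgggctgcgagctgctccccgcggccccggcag
GBX2: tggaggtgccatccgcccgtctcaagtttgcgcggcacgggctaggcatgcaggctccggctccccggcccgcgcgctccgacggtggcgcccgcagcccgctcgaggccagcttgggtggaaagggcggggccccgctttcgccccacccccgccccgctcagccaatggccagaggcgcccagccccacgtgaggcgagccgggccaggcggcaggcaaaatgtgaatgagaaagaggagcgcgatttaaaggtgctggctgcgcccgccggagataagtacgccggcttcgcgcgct
ZIC1: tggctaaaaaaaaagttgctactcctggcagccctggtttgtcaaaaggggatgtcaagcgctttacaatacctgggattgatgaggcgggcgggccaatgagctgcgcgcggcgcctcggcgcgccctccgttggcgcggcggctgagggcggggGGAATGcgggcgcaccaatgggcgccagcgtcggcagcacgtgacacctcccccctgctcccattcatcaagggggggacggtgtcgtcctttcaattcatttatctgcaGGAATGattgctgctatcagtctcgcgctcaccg
IQSEC2: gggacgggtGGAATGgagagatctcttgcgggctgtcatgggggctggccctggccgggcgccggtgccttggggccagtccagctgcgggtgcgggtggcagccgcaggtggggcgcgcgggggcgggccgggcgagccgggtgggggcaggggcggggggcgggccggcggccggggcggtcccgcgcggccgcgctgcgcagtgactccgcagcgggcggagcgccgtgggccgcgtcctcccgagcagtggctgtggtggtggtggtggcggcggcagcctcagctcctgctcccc
The GGAATG motif was in 3 of the 20 windows (15%, namely MOV10, ZIC1 and IQSEC2) and in 14.0% of 34943 RefSeq windows. No window of the 20 held TCACACCT (T-box, 0.982% of all windows), TGTGGATT (FOXH1, 0.816%), GTCTAGAC (SMAD palindrome, 0.203%), CTTTGAT (TCF/LEF, 2.63%), TGANTCA (AP-1, 7.72%), TGACGTCA (CRE, 1.84%) or the CArG box of SRF (1.3%), on either strand, and no 2 of these motifs overlapped in the windows shown. The windows had a median of 23.5 CpG sites against 14.0 in all windows, from 1 in PHACTR1 to 47 in IRX4. These counts describe the letters of the windows only.

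The rise recurred in the second experiment, whose libraries took no part in the selection. All 26 genes were called higher in N2B27 at day 4 than in naive cells on Geltrex (edgeR quasi-likelihood test, Benjamini-Hochberg adjusted p under 0.05 and log2 fold change above 1), against 12.8% of the 16674 genes tested, and both N2B27 libraries lay above both naive libraries in all 26, against 37.8% of the genes tested. The median log2 fold change of the 26 was 2.97 (2.97 with IRX4, GBX2 and PPP1R1B, whose naive libraries were at or under the floor, set at the lower limit of their counting interval), against 0.02 over all genes tested. Fitted values ran from 1.05 for ZIC1 to 6.27 for PCDH19, but the highest rest on few naive counts and have no firm order. The naive libraries of PCDH19 held 0 and 6 counts, and its value was 5.44 without the first of them and 11.4 without the second. The ZIC1 call was lost without the filter on low counts, with DESeq2, and when replicate 1 of N2B27 or either naive replicate was left out (log2 fold change 0.83 to 1.25). All 26 genes had passed that filter, which also counts the groups in which they are high.

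**Figure D2:**
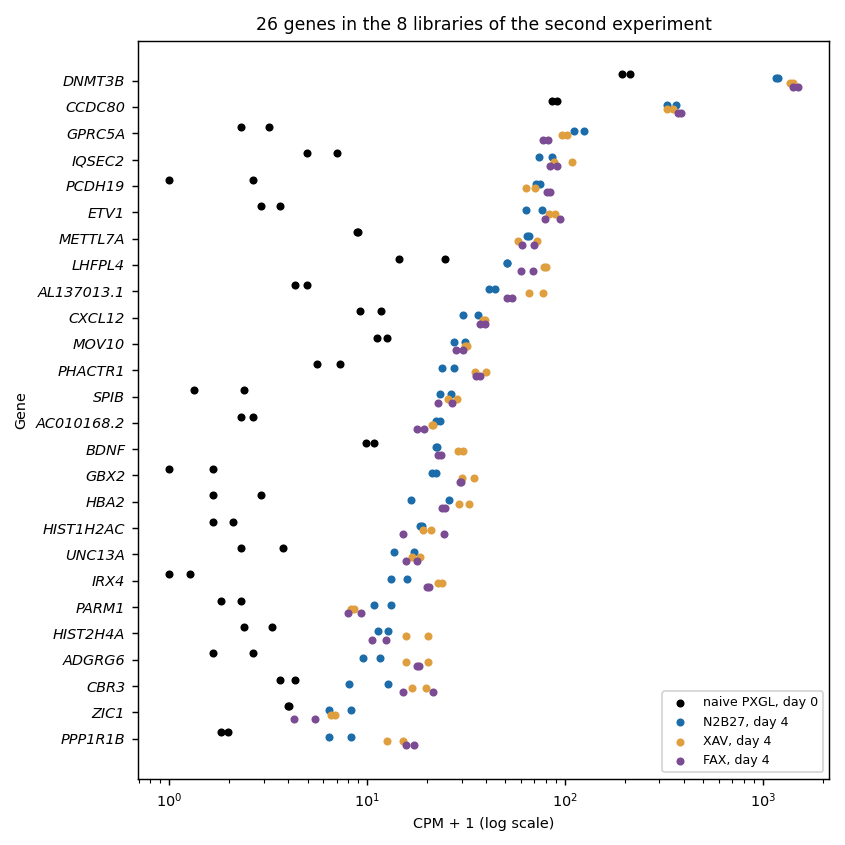
Points are the 8 libraries of the second experiment for each gene, on a log axis of CPM + 1. The naive libraries lie left of the N2B27 libraries in all 26 genes, as in 37.8% of the genes tested. XAV and FAX libraries are shown beside them. Their log2 differences from N2B27 ran from -0.58 to 1.01 with XAV and from -0.69 to 1.3 with FAX, PPP1R1B being the highest in both.

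The 5 transcription factor genes were at low counts in naive cells of the second experiment and higher in N2B27 at day 4. IRX4 (chr5:1877413-1887236), an Iroquois homeobox factor best known from the heart ventricle, had 0 and 0.275 CPM in naive cells and 12.2 and 14.8 CPM in N2B27 at day 4 of the second experiment. GBX2 (chr2:236165236-236168386), a homeobox factor that patterns the hindbrain border and acts downstream of LIF in mouse embryonic stem cells, had 0.658 and 0 CPM against 20.2 and 21.2 CPM. With naive libraries at or under the floor of 3 counts per library, the ratio of summed counts per total was 90.7 for IRX4 (exact 95% interval 15.9 to 3610), 69.2 for GBX2 (18.9 to 576) and 7.01 for PPP1R1B (3.01 to 20), intervals that cover counting error only. ETV1 (chr7:13891229-13991425), an ETS factor commonly induced by FGF and ERK signalling, rose from 2.63 and 1.92 CPM to 62.2 and 75.5 CPM (log2 fold change 4.90 ± 0.24 SE, adjusted p = 3.4e-17). SPIB (chr19:50418938-50431314), an ETS factor of lymphoid cells, rose from 0.329 and 1.37 CPM to 22.3 and 25.4 CPM (4.68 ± 0.37). Its naive libraries held 1 and 5 counts, and the value was 4.1 without the first and 6.05 without the second. The change of ZIC1 (chr3:147393422-147510293), a zinc finger factor of the neural plate, was the smallest of the 26, from 2.96 and 3.02 CPM to 7.26 and 5.41 CPM.

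In the first experiment the courses of these factors were set side by side in the 3 media. IRX4 had 11.9 and 14.9 CPM in E8 at day 4 and 2.99 and 4.01 CPM at day 8, and in mTeSR it went from 9.03 and 8.52 CPM to 1.63 and 1.70 CPM. The libraries of N2B27 at day 8 had 2.74 and 4.03 CPM. GBX2 in E8 went from 22.8 and 21.8 CPM at day 3 to 5.98 and 7.08 CPM at day 8, and in mTeSR from 18.5 and 15.9 CPM at day 4 to 9.52 and 9.34 CPM at day 8. ZIC1 peaked in E8 at day 3 with 10.2 and 10.8 CPM and was down to 3.55 and 4.51 CPM at day 4, when N2B27 still had 11.1 and 9.53 CPM. SPIB went from 20.1 and 13.4 CPM at day 3 to 7.10 and 4.72 CPM at day 8 in E8. ETV1 was highest in E8 at day 2 with 147.3 and 153.3 CPM, lowest at day 6 with 67.9 and 62.4 CPM, and back at 99.6 and 86.3 CPM at day 8, where N2B27 had 41.5 and 52.7 CPM and mTeSR 91.9 and 99.6 CPM.

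DNMT3B (chr20:32762385-32809359), which sets new DNA methylation, leads the genes of chromatin and RNA silencing. Naive libraries of the first experiment had 248.5 to 340.2 CPM, N2B27 had 1539 and 1730.0 CPM at day 2, 1386 and 1428 CPM at day 4 and 583 and 658.6 CPM at day 8. In E8 it went from 1764 and 1388 CPM at day 3 to 920.5 and 922.3 CPM at day 8, and in mTeSR from 1463 and 1317 CPM at day 4 to 940.0 and 1051 CPM at day 8. It was thus lower at day 8 in every medium and still above the naive libraries. HIST1H2AC (listed as H2AC6 in the annotation) and HIST2H4A (H4C14), replication-dependent histone genes whose messages mostly lack poly(A) tails, had 13.9 and 16.8 CPM and 13.7 and 12.4 CPM in N2B27 at day 3. In mTeSR HIST1H2AC went from 14.7 and 11.8 CPM at day 4 to 1.63 and 1.41 CPM at day 8, under all 4 naive libraries (3.42 to 5.02 CPM), and HIST2H4A from 9.27 and 17.3 CPM to 3.54 and 1.98 CPM. Both belong to families of near-identical copies, so that their reads may be split between genes. MOV10, an RNA helicase that restrains retrotransposons, went from 49.2 and 42.9 CPM in E8 at day 4 to 18.9 and 25.0 CPM at day 8.

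The secreted proteins included BDNF, a neurotrophin, CXCL12, a chemokine that guides migrating cells through CXCR4, and CCDC80, an extracellular matrix protein. CCDC80 had 90.9 to 105.4 CPM in the naive libraries, 433.8 and 453.1 CPM in E8 at day 3 and 140.2 and 191.7 CPM at day 8. In mTeSR it went from 406.1 and 446.8 CPM at day 4 to 194.1 and 202.0 CPM at day 8, and N2B27 at day 8 had 172.4 and 178.7 CPM. CXCL12 went from 33.0 and 44.8 CPM at day 3 in E8 to 10.3 and 17.4 CPM at day 8, and in mTeSR from 32.5 and 38.2 CPM at day 4 to 22.6 and 22.1 CPM. BDNF peaked early in E8, with 32.5 and 54.6 CPM at day 2, and held 21.3 and 22.2 CPM at day 8, where N2B27 had 8.67 and 8.82 CPM. BDNF overlaps an antisense gene, and the strand setting of the counting is not given in the sources used here.

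Of the genes of membrane receptors and adhesion, GPRC5A (chr12:12891559-12917937), an orphan receptor induced by retinoic acid, peaked late. It had 7.29 to 12.5 CPM in the naive libraries, 119.7 and 125.0 CPM in N2B27 at day 4 and 100 and 105.0 CPM at day 6. In E8 it peaked at day 6 with 94.5 and 98.3 CPM, and in mTeSR at day 6 with 109.0 and 112.6 CPM. By day 8 the 3 media stood together, at 41.1 and 47.2 CPM in N2B27, 39.8 and 50.9 CPM in E8 and 49.2 and 45.5 CPM in mTeSR. PCDH19 (chrX:100291644-100410273), a protocadherin of cell adhesion, had 0.683 to 1.75 CPM in naive cells and 78.6 and 59.8 CPM in N2B27 at day 3. In E8 it was still climbing, from 33.7 and 33.6 CPM at day 3 to 64.1 and 48.3 CPM at day 8. ADGRG6, an adhesion receptor needed for myelination, PARM1, a mucin-like membrane protein, and LHFPL4, a partner of GABA receptors at synapses, had E8 levels at day 8 of 12.2 and 8.49 CPM, 9.91 and 10.6 CPM, and 25.8 and 29.9 CPM. The replicates of LHFPL4 in N2B27 at day 3 lay far apart, at 34.8 and 81.8 CPM.

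Of the genes of synaptic and intracellular signalling, IQSEC2 (chrX:53225828-53321350), an exchange factor for ARF GTPases at synapses, had 2.33 to 5.92 CPM in naive cells and 97.8 and 84.2 CPM in N2B27 at day 3, then 28.3 and 30.1 CPM at day 8. In E8 it had 117.6 and 115.8 CPM at day 4 and 93.5 and 139.4 CPM at day 8, and in mTeSR 119.5 and 117.9 CPM at day 4 and 91.1 and 112.6 CPM at day 8. The mean at day 8 was thus 3.89-fold higher in E8 and 3.41-fold higher in mTeSR than in N2B27, as (CPM + 1) ratios, without a test because N2B27 day 8 chose the genes. PPP1R1B, known as DARPP-32, an inhibitor of protein phosphatase in dopamine-responsive neurons, reached 31.6 and 21.6 CPM in E8 at day 3 and was at 2.87 and 4.29 CPM at day 6, when N2B27 had 15.4 and 11.2 CPM. UNC13A, which primes synaptic vesicles, went from 17.8 and 18.9 CPM at day 3 to 7.10 and 5.19 CPM at day 8 in E8. PHACTR1, a regulator of actin and phosphatase activity, had its highest N2B27 levels at day 2, at 40.2 and 29.8 CPM, and at day 8 was at 7.53 and 7.86 CPM, where naive cells had 7.73 to 10.4 CPM.

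Among the enzymes, METTL7A (TMT1A in current nomenclature), a membrane-bound methyltransferase, fell soonest in N2B27, from 93.7 and 70.6 CPM at day 3 to 20.6 and 16.6 CPM at day 6. In E8 it had 40.4 and 47.2 CPM at day 6 and in mTeSR 47.0 and 45.0 CPM, above all 4 naive libraries (22.1 to 25.8 CPM). CBR3, a carbonyl reductase, went from 11.5 and 18.5 CPM in E8 at day 3 to 5.79 and 4.72 CPM at day 8. HBA2, an alpha globin gene, had 29.6 and 40 CPM in N2B27 at day 4 against 17.5 and 18.8 CPM in E8 and 13.1 and 13.6 CPM in mTeSR, and at day 8 it had 10.5 and 7.67, 3.18 and 1.89, and 2.99 and 3.96 CPM in the same order. HBA2 shares nearly all of its sequence with HBA1, so that its counts are uncertain. The clone-named AC010168.2 went from 17.9 and 14.9 CPM in E8 at day 4 to 5.61 and 4.72 CPM at day 8. AL137013.1 varied between replicates, with 98.3 and 49.9 CPM in N2B27 at day 3 and 20.4 and 52.4 CPM in E8 at day 8. Neither clone-named RNA matched the annotation used here.

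**Figure D3:**
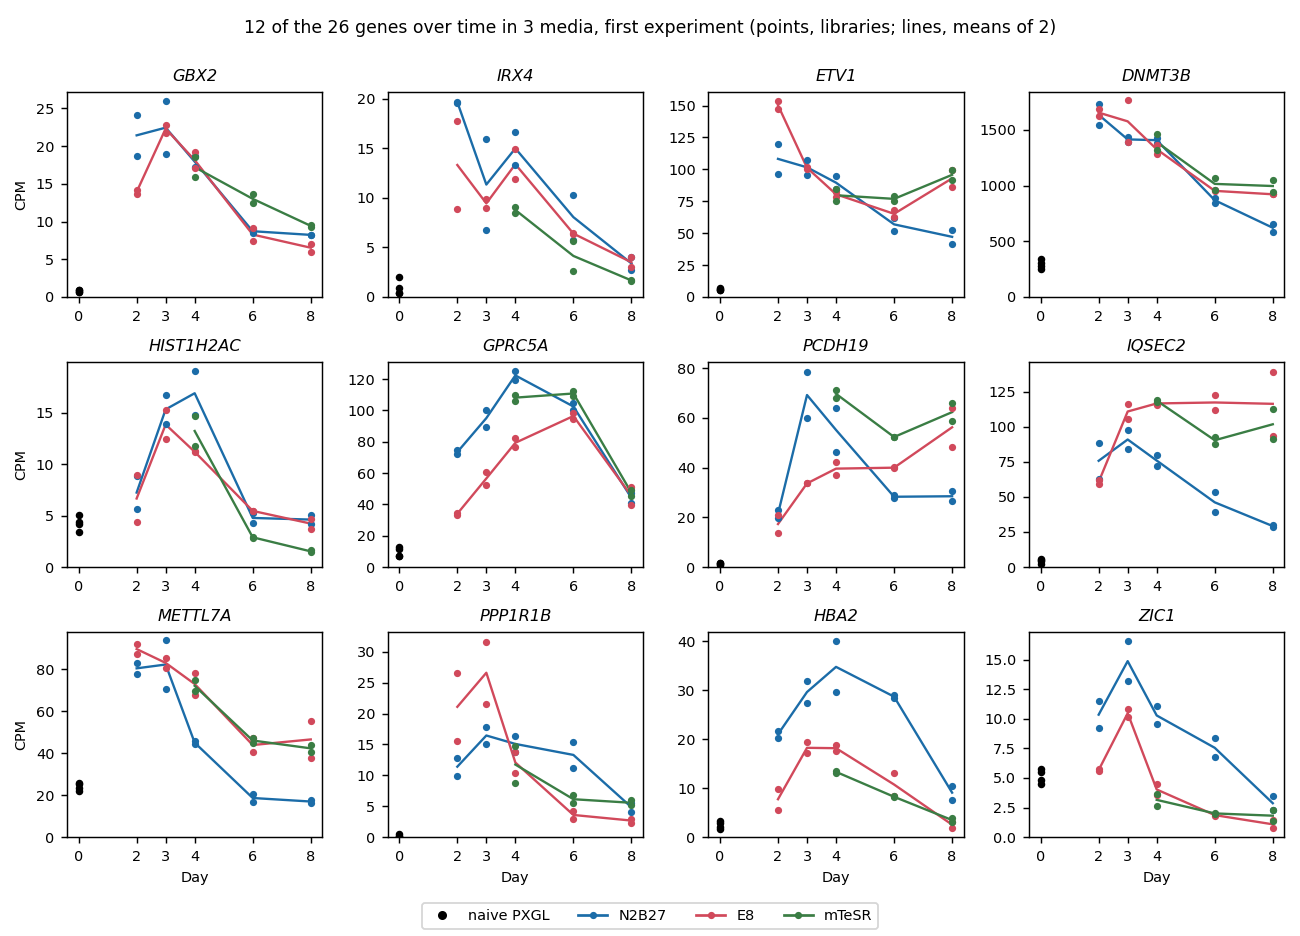
CPM of 12 of the genes by day in N2B27, E8 and mTeSR of the first experiment, with points for libraries, lines for means of 2 and black points for the 4 naive libraries at day 0. The distance between media at days 3, 4 and 8 is a description without a test, since N2B27 at those days chose the genes.

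Whether the same genes also fell in E8 and mTeSR was tested on libraries that the selection did not use. In E8 15 of the 26 genes were called higher at days 3 and 4 than at day 8, against 3.95% of all genes tested, and their median log2 fold change was 1.29 against -0.03 over all genes. In mTeSR, which has no day 3, 9 of the 26 were called higher at day 4 than at day 8, against 2.79% of all genes, with a median of 0.83 against -0.01. In E8, leaving out single libraries gave 15 to 17 genes, and in mTeSR 8 to 10. The largest falls in E8 were those of HBA2 (log2 fold change 2.82 ± 0.29), PPP1R1B (2.74 ± 0.31) and ZIC1 (2.62 ± 0.33), and in mTeSR those of HIST1H2AC (3.09 ± 0.36), IRX4 (2.38 ± 0.50) and HIST2H4A (2.25 ± 0.44, each adjusted p from 1.4e-07 to 0.00061 by edgeR). With day 4 of E8 alone against day 8, the values were 2.16 for PPP1R1B and 1.92 for ZIC1.

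The calls are given next by role, as a description of these few genes, where 3.95% of all genes were called in E8 and 2.79% in mTeSR. At an unadjusted p under 0.05 by edgeR, whatever the size or direction, there were 22 of the 26 in E8 (84.6%, against 43.7% of all genes). PCDH19, 1 of these, was higher at day 8. In mTeSR there were 17 (65.4%, against 34.7% of all genes). Of the 5 transcription factor genes, 4 fell in E8 (all but ETV1) and IRX4 and SPIB fell in mTeSR. GBX2 fell there by less than 2-fold (0.87 ± 0.21, adjusted p = 0.0028 by edgeR). Of the genes of chromatin and RNA silencing, HIST1H2AC, HIST2H4A and MOV10 fell in E8 and both histone genes fell in mTeSR. MOV10 fell there by less than 2-fold (0.95 ± 0.19, adjusted p = 0.00037 by edgeR). DNMT3B passed the adjusted p without reaching a 2-fold change, at 0.67 ± 0.09 in E8 and 0.48 ± 0.10 in mTeSR (adjusted p of 5.2e-07 and 0.0006 by edgeR). Among the secreted proteins, CXCL12 (2.68-fold) and CCDC80 (2.4-fold) fell in E8 and CCDC80 fell in mTeSR (log2 fold change 1.11 ± 0.11). CXCL12 had 0.67 ± 0.18 there (adjusted p = 0.0079 by edgeR). BDNF was called in neither medium, at 0.37 ± 0.17 in E8 and -0.09 ± 0.22 in mTeSR (adjusted p of 0.091 and 0.82 by edgeR). Of the 5 genes of membrane receptors and adhesion, 0 were called higher at days 3 and 4 in E8 by edgeR and 0 by DESeq2. That count is too small to set apart from the 3.95% of all genes called. At an unadjusted p under 0.05 by edgeR there were 3, in either direction, against 43.7% of all genes. Of the 3, GPRC5A (0.59 ± 0.10) and LHFPL4 (0.79 ± 0.23) were lower at day 8 by less than 2-fold (adjusted p of 4.1e-05 and 0.0087 by edgeR), and PCDH19 went the other way. GPRC5A fell in mTeSR (1.19 ± 0.12). UNC13A, PHACTR1 and PPP1R1B fell in E8 and PPP1R1B in mTeSR, the last call being lost when replicate 1 of day 4 or either replicate of day 8 was left out (log2 fold change 0.70 to 1.42). UNC13A (0.86 ± 0.22) and PHACTR1 (0.73 ± 0.19) fell by less than 2-fold in mTeSR (adjusted p of 0.005 and 0.004 by edgeR). HBA2 fell in both media, CBR3 in E8, and of the clone-named RNAs AC010168.2 fell in both (1.65 ± 0.23 and 1.3 ± 0.27). By less than 2-fold, METTL7A fell in both (0.77 ± 0.14 in E8 and 0.77 ± 0.16 in mTeSR, adjusted p of 3.7e-05 and 0.00056 by edgeR) and AL137013.1 in E8 (0.81 ± 0.24, adjusted p = 0.0087).

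The fall was not seen in E8 for a set of genes whose changes were centred near 0. Days 3 and 4 against day 8 gave -0.01 ± 0.14 for IQSEC2, -0.02 ± 0.11 for ETV1, 0.10 ± 0.21 for PARM1 and 0.15 ± 0.24 for ADGRG6 (log2 fold change ± SE). PCDH19 lay on the other side, at -0.61 ± 0.16, higher at day 8 (adjusted p = 0.0031 by edgeR) by less than 2-fold. In mTeSR these genes had 0.22 ± 0.17, -0.26 ± 0.13, 0.03 ± 0.26, 0.24 ± 0.29 and 0.16 ± 0.18 in the same order. Calls in E8 and mTeSR overlapped in 8 genes, 53.3% of the E8 calls and 88.9% of the mTeSR calls, where over all genes tested 184 were called in both, 27.9% of the E8 calls and 39.6% of the mTeSR calls. A test of the difference between E8 and mTeSR in the fall from day 4 to day 8, chosen after the data were seen, called 0 of the 26 genes with edgeR against 0.96% of all genes, with 6 at an unadjusted p under 0.05 (23.1%, against 13.2% of all genes), while DESeq2 called 0 with 3 at that level. The lowest p was that of HIST1H2AC, with a fall in E8 minus that in mTeSR of -1.67 ± 0.50 (log2, adjusted p = 0.087 by edgeR).

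**Figure D4:**
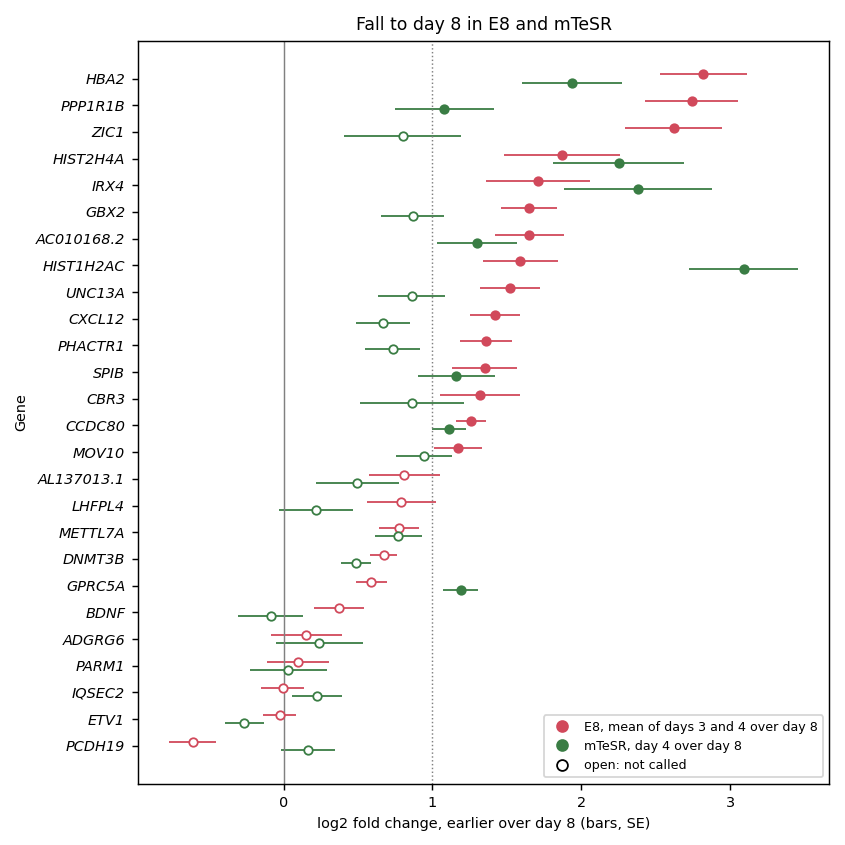
Log2 fold changes with SE for each gene, days 3 and 4 over day 8 in E8 (red) and day 4 over day 8 in mTeSR (green), sorted by E8. Filled points passed the call, and they run in E8 from MOV10 at 1.17 to HBA2 at 2.82, with the vertical dotted line at a 2-fold fall.

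Within N2B27 the fall could be tested at days that the selection did not use. Between day 2 and day 6, 8 genes were called lower at day 6, against 6.46% of all genes, and the median log2 fold change of the 26 was -0.69 against 0.03. METTL7A (-2.19 ± 0.17), PHACTR1 (-1.52 ± 0.17), CBR3 (-1.51 ± 0.33), GBX2 (-1.38 ± 0.20), IRX4 (-1.37 ± 0.32), SPIB (-1.24 ± 0.23), ETV1 (-1.01 ± 0.13) and DNMT3B (-1.0 ± 0.10) were the 8. ETV1 and DNMT3B lay at the 2-fold limit and were not called with plain library totals or without replicate 2 of day 6, DNMT3B also without replicate 2 and ETV1 without replicate 1 of day 2 (log2 fold changes -1.17 to -0.91 and -1.18 to -0.90 over all alternatives). GPRC5A was higher at day 6 by less than 2-fold (0.40 ± 0.11, adjusted p = 0.0047 by edgeR).

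Media were compared directly at days 2, 4 and 6. At day 6, 4 genes were called higher in E8 than in N2B27, against 2.31% of all genes, namely IQSEC2 (1.41 ± 0.18), METTL7A (1.3 ± 0.18), AL137013.1 (1.03 ± 0.28) and PARM1 (1.01 ± 0.27). Another 3 were called lower, against 2.97%, namely ZIC1 (-1.94 ± 0.32), PPP1R1B (-1.81 ± 0.34) and HBA2 (-1.35 ± 0.24). AL137013.1 and PARM1 were lost with plain library totals and when replicate 2 of N2B27 was left out, AL137013.1 also without replicate 1 of either medium and PARM1 without replicate 2 of E8 (log2 fold changes 0.93 to 1.12 and 0.72 to 1.24). At day 2, PPP1R1B was called higher in E8 (1.01 ± 0.28, against 2.82% of all genes) and HBA2 (-1.33 ± 0.28) and LHFPL4 (-1.01 ± 0.31) were called lower, against 1.72%. HBA2 had 9.86 and 5.61 CPM in E8 at that day and 21.7 and 20.3 CPM in N2B27. All 3 calls of day 2 were lost without replicate 2 of E8, that of PPP1R1B also without either N2B27 library and that of LHFPL4 without replicate 1 of either medium. Of the calls over all genes at day 2, 62.1% were higher in E8 by TMM scaling and 43.5% by plain library totals, which moved the median of all genes from -0.03 to -0.15.

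Between mTeSR and E8 at day 4, edgeR called 0 of the 26 genes against 0.084% of all genes, with 4 at an unadjusted p under 0.05 (15.4%, against 9.12% of all genes), and DESeq2 called 0 with 3 at that level. Their log2 differences ran from -0.62 for IRX4 to 0.80 for PCDH19, which had 68.0 and 71.4 CPM in mTeSR and 42.3 and 36.8 CPM in E8 (0.80 ± 0.18, adjusted p = 0.052 by edgeR).

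Additions to N2B27 in the second experiment gave few calls among the 26 genes. With XAV, edgeR called 0 of the 26 at day 4 against 0.57% of all genes, and DESeq2 called 0. At an unadjusted p under 0.05 there were 13 of the 26 by edgeR (50%, against 9.35% of all genes) and 9 by DESeq2. With XAV, 19 of the 26 were higher (51.3% of all genes were), with a median log2 difference of 0.26 against 0.01 over all genes. GBX2 had 33.5 and 29.3 CPM with XAV and 20.2 and 21.2 CPM without it (0.58 ± 0.17, adjusted p = 0.10 by edgeR). With FAX, PPP1R1B was called higher (1.3 ± 0.31), at 14.7 and 16.3 CPM against 7.26 and 5.41 CPM in N2B27, where 0.06% of all genes were called higher. That call was lost with DESeq2, which called 0 of the 26, and without any of the 4 libraries compared. At an unadjusted p under 0.05 there were 9 of the 26 by edgeR (34.6%, against 8.76% of all genes) and 8 by DESeq2. With FAX, 20 of the 26 were higher (48.9% of all genes were), with a median log2 difference of 0.16 against -0.01 over all genes. GPRC5A was lower with FAX by less than 2-fold, at 81.3 and 76.7 CPM against 110.5 and 123.6 CPM (-0.56 ± 0.11, adjusted p = 0.0058 by edgeR). These comparisons share the N2B27 libraries with each other and with the comparison against naive cells.

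Of 22 pathway and marker lists holding 345 distinct genes, only the lists of FGF and ERK pathway genes and of formative and primed markers held any of the 26, namely ETV1 and DNMT3B. In the second experiment 23 of the 29 tested FGF and ERK genes were called higher and 1 lower in N2B27 at day 4 than in naive cells, where 12.8% of all genes were called higher and 9.0% lower. Its other ETS members ETV4 (2.99 ± 0.23) and ETV5 (a ratio of summed counts with an exact 95% interval of 69.3 to 15400, from 0 and 1 naive counts), both induced by FGF signals, rose with ETV1. In E8, 2 of the 29 were called higher at days 3 and 4 than at day 8 and 3 lower, where 3.95% and 8.58% of all genes were called, and in mTeSR 2 were called higher at day 4 than at day 8 (2.79% of all genes). Of the 13 formative and primed markers tested all rose in the second experiment (12.8% of all genes). In E8 4 of them were lower at days 3 and 4 than at day 8 (8.58% of all genes) and in mTeSR 5 were lower at day 4 than at day 8 (6.46% of all genes), ZIC2 (-1.44 ± 0.13 and -1.76 ± 0.15) in both. DNMT3B was the only gene of that list to meet the selection.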

How the data were processed

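RNA of 38 libraries was measured by QuantSeq. The authors deposited raw gene counts, made with the nf-core rnaseq workflow on hg38 using STAR 2.7.10a and Salmon 1.9.0 per the labels and methods, with FastQC 0.11.9 for quality. CPM was computed here from column totals (3038046 to 5612354). The 26 genes, the gene lists and the tests were chosen with earlier results of these data known. Counts were fitted in edgeR 4.0.16 (R 4.3.3) after filterByExpr (16674 genes, 99.65% of counts) with TMM scaling, 19 group levels and quasi-likelihood F-tests, all groups sharing the estimate of spread (common dispersion 0.01). Calls needed an adjusted p under 0.05 and an absolute log2 fold change above 1, over all genes tested. SEs were derived from the F statistic. The fit recovered known changes in simulated counts, which gave all genes the same spread and set changes only in genes at higher levels. That simulation does not cover genes at low counts or with a larger spread. Genes named comprised all members, and for lists the genes closest to ETV1 and DNMT3B, some chosen after their values were seen. DESeq2 1.42.0, other scalings and filters, a replicate block and leaving out libraries were alternatives. Replicate numbers did not pair samples (correlations of deviations from -0.0732 to 0.123). Positions are from GENCODE on GRCh38 for 24 genes. Floors cover counting error only.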

Additional observations from a re-analysis of the deposited data

How the results depend on the processing

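Of 69 calls of single genes, 59 held under every alternative and 10 were lost in at least 1, and none of 804 recomputed values changed direction. With the replicate block, which takes same-numbered libraries as paired, counts stayed within 1.5 times the reported ones in each comparison (26 against naive cells, 15 in E8 and 9 in mTeSR), though the numbers did not pair the libraries. Counts outside that range were few. With DESeq2 the FAX comparison called 0 genes higher and the day 2 comparison of E8 with N2B27 1 lower. At day 2, plain library totals, no filter and the compared libraries alone each called 0 higher, and RLE scaling, the filter of more than 10 counts in 2 libraries and the compared libraries alone each called 1 lower. At day 6, plain library totals called 2 higher in E8. Leaving out single libraries gave 0 in FAX, 0 to 2 higher and 0 to 3 lower at day 2 and 2 to 3 higher at day 6. With 1 library left in a group, its spread was assumed to be that of the other groups. The cause was not tested.

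The selection itself depended on its limits: 17 genes with a pseudocount of 5, 10 when the minimum and both ratios were taken from the lowest library of days 3 and 4 and the highest naive or day 8 library, 6 with a ratio of 3, 16 with a mean of 20 CPM, 48 with day 3 alone and 24 with day 4 alone. Leaving out 1 of its 10 libraries gave 24 to 34 genes, and 21 of the 26 were kept in each. With 2 libraries a group, low genes are limited by depth.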

Other observations

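The 7 genes left out by name passed the same ratios. They are the transporters SLC45A4 and SLCO4A1, the TERF1 pseudogenes TERF1P1, TERF1P3 and TERF1P5, and BRINP1 and TIMP4, which are no pseudogenes but end in P and a digit. TIMP4, an inhibitor of matrix metalloproteinases, had 60.6 and 31.9 CPM in N2B27 at day 3, 9.35 and 11.9 CPM at day 8 and 1.08 to 2.63 CPM in naive cells. BRINP1, a neural inhibitor of cell cycling, had 25.2 and 22.7 CPM at day 3 and 11.9 and 9.59 CPM at day 8. All 7 were called higher in N2B27 at day 4 than in naive cells of the second experiment (12.8% of all genes), SLC45A4 and SLCO4A1 were called to fall in E8 (3.95%), and SLC45A4 and TERF1P1 in mTeSR (2.79%, edgeR).

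The TERF1 pseudogenes can share reads with TERF1, which encodes a telomere-binding protein. TERF1P5 had 87.7 and 60.4 CPM in N2B27 at day 3 and 27.8 and 16.7 CPM at day 8, whereas TERF1 had 1190 CPM in both libraries of day 3 and 757 and 688 CPM at day 8. TERF1 was not called between days 3 and 4 and day 8 in E8 (log2 fold change -0.04 ± 0.08). How reads were divided between TERF1 and its copies was not tested.

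Replicates lay apart in some genes. In N2B27 at day 3, replicate 1 was above replicate 2 for AL137013.1 (98.3 and 49.9 CPM), TIMP4 (60.6 and 31.9 CPM) and TERF1P1 (20.7 and 11.4 CPM), and below it for LHFPL4 (34.8 and 81.8 CPM) and IRX4 (6.73 and 15.9 CPM). In E8 at day 8, replicate 1 was the lower for AL137013.1 (20.4 and 52.4 CPM) and TERF1P5 (35.7 and 64.9 CPM). These genes were noticed after their values were seen.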
